A study of Mus musculus with 10 samples.

Results

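Lcp2, Fcer1g, Tyrobp, Ptprc, Laptm5, Ctss, C1qa, C1qb and C1qc are 9 genes of myeloid cells that were followed here through hepatocyte preparations of 4 mouse genotypes. They were the rows of the gene table whose Ensembl identifiers carry these symbols, 9 of 21939 genes in all. The 9 were chosen as a group with genotype differences of the same libraries already known, so their levels and fold changes are given as a description and no p-value is attached to them.

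The control mice were wild-type C57BL6/j animals (n = 3), Nrf2 KO mice carried Nrf2 flox/flox alleles (n = 2), p65 KO mice carried p65 flox/flox alleles (n = 2), and double-knockout (DKO) mice carried both (n = 3). All 10 mice were males of 8 to 9 weeks and all, controls included, received AAV8Cre, a viral vector that drives Cre recombinase from the thyroxine-binding globulin promoter, which is active in hepatocytes. Deletion was therefore not directed at myeloid cells. Hepatocytes were isolated 12 days later by perfusing the liver with a collagenase mixture, spinning at low speed and passing the cells through Percoll, and their poly-A RNA was sequenced. Nrf2, encoded by Nfe2l2, is the transcription factor of the antioxidant response, and p65, encoded by Rela, is a subunit of NF-κB. Each library is 1 mouse.

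The libraries held 33707165 to 49897382 estimated counts. Alb, the albumin gene, had 2472214 to 4159525 normalized counts in each library, and none of 12 hepatocyte genes was called between p65 KO and control by edgeR or DESeq2 (3 had an unadjusted p under 0.05). Nfe2l2 had 1990 to 2318 normalized counts in control and 4739 and 5005 in Nrf2 KO libraries, and Rela had 1221 to 1276 in control and 1183 and 1209 in p65 KO libraries. The table gives a single total per gene that does not separate the deleted exons, so these totals do not check the genotype labels, which were taken as given. Control, Nrf2 KO, p65 KO and DKO below mean libraries so labelled. In such bulk samples, fewer cells of a type and less RNA per cell cannot be told apart.

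Fcer1g and Tyrobp encode small transmembrane adaptors with an immunoreceptor tyrosine-based activation motif (ITAM). Receptors for antibody, glycans and lipids that lack a signalling tail of their own pair with these adaptors. Upon ligation the motif is phosphorylated by Src-family kinases and recruits the kinase Syk, and the scaffold encoded by Lcp2 then gathers Vav and phospholipase C-gamma. Ptprc encodes the leukocyte phosphatase CD45, which sets the activity of Src-family kinases. Laptm5 encodes a lysosomal membrane protein of haematopoietic cells, and Ctss encodes cathepsin S, the protease that trims the invariant chain of MHC class II. C1qa, C1qb and C1qc encode the 3 chains of C1q, the recognition part of the first complement component. In the liver, C1q is made mainly by macrophages, whereas hepatocytes make the proteases C1r and C1s that bind to it.

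All 9 genes were low in control and Nrf2 KO libraries, highest in p65 KO and intermediate in DKO. Against control, the fitted fold differences in p65 KO ran from 6.01-fold for Ptprc to 11.6-fold for Lcp2, and in DKO from 2.42-fold for Laptm5 to 4.34-fold for Lcp2. In Nrf2 KO they ran from 0.489-fold for Laptm5 to 1.1-fold for C1qc. Counts are given below after scaling of the libraries by trimmed mean of M-values (TMM), and are called normalized counts.

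**Figure D1:**
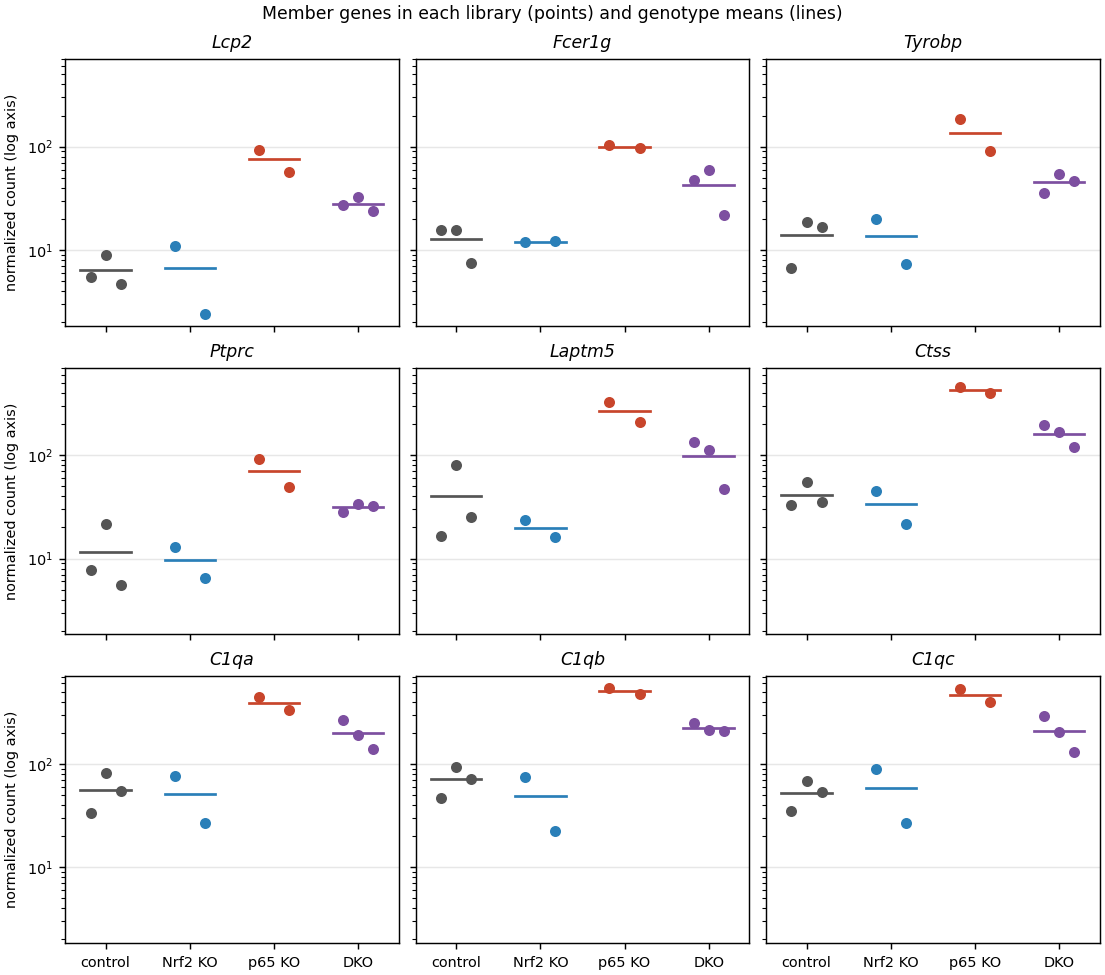
Normalized counts (log axis) of the 9 genes in each library; points are single mice and lines are genotype means of control (n = 3), Nrf2 KO (n = 2), p65 KO (n = 2) and DKO (n = 3). Both p65 KO points lie above every control and every DKO point in all 9 panels, and DKO points lie above control in 8 of 9, Laptm5 being the exception.

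Tyrobp, which encodes the adaptor DAP12, had 6.63, 18.7 and 16.8 normalized counts in the control libraries, 19.8 and 7.27 in Nrf2 KO, 184 and 89.8 in p65 KO, and 35.8, 53.9 and 46.9 in DKO. The p65 KO libraries stood clear of all others although they differed widely from each other, and the DKO libraries lay clear of both neighbours. The log2 fold change was 3.26 ± 0.521 (SE) for p65 KO and 1.67 ± 0.491 for DKO against control. Fcer1g, which encodes the common gamma chain of Fc receptors, had 15.5, 15.7 and 7.47 in control, 11.9 and 12.1 in Nrf2 KO, 104 and 96.4 in p65 KO, and 47.3, 59.5 and 21.7 in DKO. Its p65 KO libraries were close together, and the lowest DKO library was still above the highest control. The log2 fold changes were 2.95 ± 0.474 in p65 KO and 1.73 ± 0.446 in DKO.

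Lcp2 had the fewest counts of the 9 genes, with 5.52, 8.85 and 4.67 normalized counts in control and 10.9 and 2.42 in Nrf2 KO. It reached 93.5 and 56.7 in p65 KO and 27.4, 32.5 and 24 in DKO. The control values rest on 5, 9 and 5 estimated counts, for which the exact 95% Poisson intervals are 1.62 to 11.7 for 5 counts and 4.12 to 17.1 for 9 counts. These intervals cover counting error only. Neither p65 KO nor DKO overlapped with control, and the log2 fold changes were 3.54 ± 0.571 in p65 KO and 2.12 ± 0.543 in DKO.

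Ptprc had 7.73, 21.6 and 5.6 normalized counts in control, 12.9 and 6.47 in Nrf2 KO, 92.4 and 49.1 in p65 KO, and 28.4, 33.7 and 32 in DKO. Control replicate 2 was high for this gene, and the 3 DKO libraries were the most alike of any group. Its log2 fold change was 2.59 ± 0.573 in p65 KO, or 3.39 without control replicate 2, and 1.42 ± 0.54 in DKO, or 2.22 without that library. Laptm5 shared this feature. It had 16.6, 79.7 and 25.2 in control, 23.7 and 16.2 in Nrf2 KO, 329 and 208 in p65 KO, and 135, 113 and 46.9 in DKO. Control replicate 2 exceeded DKO replicate 3, so control and DKO overlapped for Laptm5. Its log2 fold changes were 2.72 ± 0.581 in p65 KO and 1.27 ± 0.542 in DKO, and without control replicate 2 they were 3.67 and 2.22.

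Ctss had 33.1, 55.1 and 35.5 normalized counts in control, 45.5 and 21.8 in Nrf2 KO, 456 and 397 in p65 KO, and 196, 166 and 119 in DKO. It had the smallest standard errors of the 9 genes, with log2 fold changes of 3.36 ± 0.325 in p65 KO and 1.95 ± 0.304 in DKO. DKO exceeded Nrf2 KO by 2.27 ± 0.358 and was below p65 KO, at -1.41 ± 0.302. By edgeR, Ctss was the one gene of the 9 past both thresholds in each of those last comparisons, where DESeq2 called 7 and 3 of the 9. The edgeR call against Nrf2 KO was lost without Nrf2 KO replicate 2 and when only the genotypes compared were fitted, and that against p65 KO with the replicate block and without DKO replicate 1, DKO replicate 3 or either p65 KO replicate.

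The C1q genes lie side by side within 20153 bp on chromosome 4 (GRCm39, 136606009 to 136626161), all on the minus strand, in the order C1qb, C1qc and C1qa. C1qa had 33.1, 81.6 and 54.2 normalized counts in control, 76.1 and 26.7 in Nrf2 KO, 439 and 333 in p65 KO, and 263, 191 and 138 in DKO. C1qb had 46.4, 93.4 and 71.9 in control, 75.1 and 22.6 in Nrf2 KO, 537 and 473 in p65 KO, and 251, 212 and 208 in DKO. C1qc had 35.3, 67.9 and 53.2 in control, 90 and 26.7 in Nrf2 KO, 532 and 397 in p65 KO, and 288, 204 and 129 in DKO. For each chain both mutant groups that lack p65 lay clear of control, while the Nrf2 KO libraries overlapped control. The log2 fold changes in p65 KO were 2.77 ± 0.434 for C1qa, 2.83 ± 0.377 for C1qb and 3.15 ± 0.456 for C1qc, and in DKO 1.80 ± 0.405, 1.66 ± 0.352 and 1.98 ± 0.426. The 3 chains assemble in equal numbers. Of their summed counts per kb of transcript, C1qa made up 43.3% to 51.3% in single libraries, C1qb 18.7% to 29.4% and C1qc 24.7% to 32.8% over the 10 libraries.

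For the C1q genes and Fcer1g, the bases just upstream of their transcription starts are shown (GRCm39, GENCODE M39 canonical starts, written 5′ to 3′ on the strand of the gene). Capitals mark GAGGAA or its reverse complement TTCCTC, a core recognised by PU.1, the myeloid factor encoded by Spi1. Fcer1g is shown for the 202 bases that hold no annotated exon.
C1qa, chr4:136626162-136626411, minus strand: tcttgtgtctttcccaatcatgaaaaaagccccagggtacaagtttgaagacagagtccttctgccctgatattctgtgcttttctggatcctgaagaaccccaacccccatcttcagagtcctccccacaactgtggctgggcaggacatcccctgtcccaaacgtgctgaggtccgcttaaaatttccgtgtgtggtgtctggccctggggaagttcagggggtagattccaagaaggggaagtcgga
C1qb, chr4:136613512-136613761, minus strand: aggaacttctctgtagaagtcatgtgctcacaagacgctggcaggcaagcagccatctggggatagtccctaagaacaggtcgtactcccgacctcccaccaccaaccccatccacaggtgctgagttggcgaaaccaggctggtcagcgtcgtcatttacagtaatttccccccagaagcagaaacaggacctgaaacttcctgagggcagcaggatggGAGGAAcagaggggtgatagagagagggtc
C1qc, chr4:136620377-136620626, minus strand: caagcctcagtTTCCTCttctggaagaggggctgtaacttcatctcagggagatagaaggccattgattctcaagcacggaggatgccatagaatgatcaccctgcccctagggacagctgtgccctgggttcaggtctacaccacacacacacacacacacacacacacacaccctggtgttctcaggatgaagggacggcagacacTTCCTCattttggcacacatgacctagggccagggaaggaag
Fcer1g, chr1:171062220-171062421, minus strand: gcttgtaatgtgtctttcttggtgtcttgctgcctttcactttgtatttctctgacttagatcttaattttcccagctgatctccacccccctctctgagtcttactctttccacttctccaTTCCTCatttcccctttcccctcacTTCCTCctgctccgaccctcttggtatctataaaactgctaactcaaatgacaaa
GAGGAA occurred on either strand in the 250 bases upstream of 6 of the 9 genes, and in 23% of 21453 protein-coding genes. Annotated exons were left in the windows for these counts, and some matches, such as that of Ctss, lie beyond the bases free of exons. C1qb held 1 match, 30 bases upstream at its first base, C1qc held 2, Fcer1g held 2 and C1qa none. The consensus of NF-κB was found upstream of 0 of the 9 genes and of 7.64% of all. These are letter matches in a short window and say nothing about binding.

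Levels can be compared between genes only per length of transcript. Per kb of canonical transcript, mean normalized counts in p65 KO were 355 for C1qa, 312 for Ctss, 251 for C1qc, 225 for Tyrobp, 199 for C1qb, 104 for Fcer1g, 103 for Laptm5, 19.9 for Lcp2 and 13.8 for Ptprc. In the p65 KO libraries the per kb values of these neighbours in the order overlapped: C1qa and Ctss, C1qc and Tyrobp, Tyrobp and C1qb, Fcer1g and Laptm5, and Lcp2 and Ptprc. Those of Tyrobp also overlapped those of Ctss. C1qa also led in control, at 51.8 per kb, and Lcp2 was lowest there, at 1.68 per kb.

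The question posed by the p65 KO libraries is what changes in hepatocyte preparations when p65 is lost alone. A gene was called when the edgeR quasi-likelihood test gave a Benjamini-Hochberg adjusted p of at most 0.05 over all 13641 genes tested and the log2 fold change was at least 1 in size. All 9 genes passed the filter on low counts and all 9 were called higher in p65 KO than in control, where 6.59% of all genes were called and 5.05% were called higher. Since the genes were chosen on this contrast, nothing is read from that count. Their median log2 fold change was 2.95. Both p65 KO libraries exceeded all 3 controls for 9 of 9 genes, as they did for 26.2% of all genes. Without p65 KO replicate 1, the highest library for all 9 genes, 6 remained called, and Laptm5, Ptprc and Tyrobp did not.

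Loss of Nrf2 alone left the 9 genes without a common direction. The median log2 fold change was -0.16, from -1.03 ± 0.669 for Laptm5 to 0.13 ± 0.49 for C1qc. Without control replicate 2 the Laptm5 value was -0.09. By edgeR none of the 9 was called, 0 had an unadjusted p under 0.05 and DESeq2 called 0, while 0.55% of all genes were called. Nrf2 KO and control libraries overlapped for all 9 genes, whereas 28.5% of all genes did not overlap in either direction. Nrf2 KO replicate 2 was the lower of the pair for 8 of the 9 genes, Fcer1g being the exception. With these standard errors, a difference of the size seen for Laptm5 was not distinguishable from the spread between mice.

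In DKO, 6 of the 9 genes were called higher than control, namely Lcp2, Fcer1g, Ctss, C1qa, C1qb and C1qc, where 2.38% of all genes were called and 1.36% were called higher. All 3 DKO libraries exceeded all 3 controls for 8 of 9 genes, and for 13.2% of all genes. The number called depended on single libraries. It was 1, Ctss, without DKO replicate 1, without control replicate 1 or without control replicate 3, and it was 3 without DKO replicate 2. The direction was kept for all 9 genes in each of these settings, with log2 fold changes from 0.91 for Laptm5 to 2.43 for Lcp2 over all 18 alternatives.

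Set against Nrf2 KO, DKO shows the loss of p65 on a Nrf2-deficient background. All 3 DKO libraries exceeded both Nrf2 KO libraries for all 9 genes, as for 15.8% of all genes, and the median log2 fold change was 1.96, from 1.70 ± 0.629 for Ptprc to 2.31 ± 0.669 for Laptm5. Ctss was called, and 0.433% of all genes were. Set against p65 KO, all 3 DKO libraries were below both p65 KO libraries for all 9 genes, as for 20.1% of all genes. The median was -1.22, from -1.59 ± 0.487 for Tyrobp to -0.96 ± 0.412 for C1qa. Ctss was again called, and 1.78% of all genes were.

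The difference between the effect of p65 loss with and without Nrf2 was taken as an interaction. It was negative for all 9 genes, from -1.5 ± 0.76 for Tyrobp to -0.41 ± 0.88 for Laptm5, with a median of -1.10. The sign changed for some: without Nrf2 KO replicate 1 it was 0.47 for C1qb and 0.12 for C1qa, and with the replicate block it was 0.16 for Laptm5. By edgeR none was called and 1 had an unadjusted p under 0.05, DESeq2 called 0, and 0.455% of all genes were called. DKO and p65 KO are each compared with the same 3 control libraries, so their values against control are set side by side only. On the log2 scale the DKO difference was 46.7% of the p65 KO difference for Laptm5 and 65% for C1qa, which were the ends of the range. The Laptm5 share depended on control replicate 2, without which its log2 fold changes were 2.22 in DKO and 3.67 in p65 KO.

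**Figure D2:**
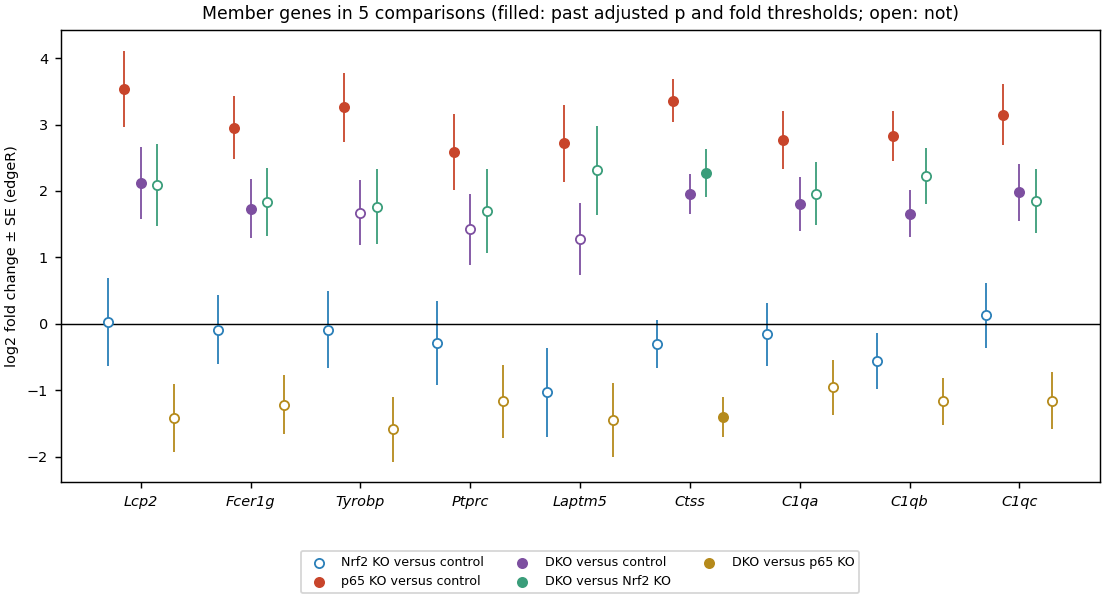
Log2 fold changes with standard errors (vertical axis) of the 9 genes in 5 comparisons; filled points passed both thresholds and open points did not. Values for p65 KO against control run from 2.59 to 3.54, those for Nrf2 KO against control straddle 0, and those for DKO against p65 KO run from -1.59 to -0.96.

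Receptors coupled to ITAM signalling, among them partners of Fcer1g and Tyrobp, were examined next. Of 16 such receptors tested, 7 rose in p65 KO. Here and below, a gene said to rise was called higher by edgeR, as were 5.05% of all genes in p65 KO and 1.36% in DKO. Fcgr4, an activating receptor for IgG, had 2.95 to 7.47 normalized counts in control, 111 and 88.8 in p65 KO, and 25.2 to 39.3 in DKO. It rose by 4.19 ± 0.559 on the log2 scale in p65 KO (edgeR adjusted p = 0.00198) and by 2.64 ± 0.533 in DKO (edgeR adjusted p = 0.0205). Fcgr3, the low-affinity activating receptor, rose by 3.83 ± 0.56 and 2.39 ± 0.533 (edgeR adjusted p = 0.00281 and 0.0289). Fcgr1, the high-affinity receptor, had 3.93 to 11.2 in control and 36.6 and 26.5 in p65 KO and was not called (edgeR adjusted p = 0.149). The remaining called receptors included Cd300ld, with 79.2 and 87.9 normalized counts in p65 KO against 6.63 to 14.9 in control. Clec7a, the beta-glucan receptor, had 31.5 and 26.5 in p65 KO and at most 2.95 in control. Trem2 had at most 5.67 in any library. In DKO, 2 of the 16 rose, Fcgr3 and Fcgr4, and 15 of the 16 had a positive log2 fold change. The median log2 fold change of the 16 was 2.73 in p65 KO and 2.03 in DKO, against 0.001 and 0.025 over all genes tested. With bounds these medians were 2.56 and 1.13. For the bounds, a gene that never exceeded 3 counts in 1 of the 2 groups compared was set to that floor in that group. Genes that never exceeded it in either group were left out.

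Of 26 kinases and adaptors that act beside Lcp2, 7 rose in p65 KO, with a median log2 fold change of 2.32, or 2.08 with bounds. Syk had 4.42 to 12.1 normalized counts in control and 57.9 and 47.3 in p65 KO (log2 fold change 2.45 ± 0.718, edgeR adjusted p = 0.0435). Vav1, the exchange factor that Lcp2 recruits, had 6.54 to 8.83 in control and 48.8 and 32.1 in p65 KO (edgeR adjusted p = 0.0379). Fyb1, an adaptor that binds the scaffold, was the only member of the list called by edgeR in DKO (log2 fold change 3.13 ± 0.771, edgeR adjusted p = 0.0408), from 1.1 to 6.88 in control to 16.8 to 69.4. DESeq2 called 2 of the list higher in DKO. Of the 26 genes, 22 had a positive log2 fold change there, with a median of 1.03, or 0.87 with bounds. Plcg2 had 0.934 to 5.9 in control and 28.4 and 12.3 in p65 KO and was not called (edgeR adjusted p = 0.0628). Grap2, another adaptor that binds Lcp2 in haematopoietic cells, had at most 1.87 in control and 7.11 and 0.945 in p65 KO. Some members of the list were abundant in every genotype and did not move with the 9 genes. Lyn, a Src-family kinase, had 764 to 834 in control and 843 and 936 in p65 KO, and Pik3ap1 had 1802 to 2706 in control and 3626 and 2379 in p65 KO.

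Among inhibitory receptors and phosphatases, 11 of 21 rose in p65 KO. Inpp5d, which encodes the lipid phosphatase SHIP, had 4.67 to 6.88 normalized counts in control and 78.2 and 35 in p65 KO (log2 fold change 3.2 ± 0.579, edgeR adjusted p = 0.0068). Siglec1, the macrophage sialic acid receptor, had 6.63 to 22.6 in control and 173 and 95.5 in p65 KO (edgeR adjusted p = 0.0108). Sirpa, the receptor for CD47, rose in p65 KO by 2.35 ± 0.389 and in DKO by 1.69 ± 0.363 (edgeR adjusted p = 0.00476 and 0.0252). Ptpn6, which encodes the phosphatase SHP-1, had 509 to 584 in control and 450 and 415 in p65 KO and was not called (log2 fold change -0.37 ± 0.122, edgeR adjusted p = 0.0639). Activating and inhibitory receptors were thus both among the genes that rose. The median was 2.51, or 2.35 with bounds, in p65 KO, and 2 of 21 rose in DKO. In DKO 18 of the 21 had a positive log2 fold change, with a median of 1.33, or 1.26 with bounds.

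C1ra, C1s1, Serping1 and C4b differed less between control and p65 KO than the C1q genes did. Of 23 genes of the classical pathway and its regulators, 3 rose in p65 KO, Vsig4, Itgax and C3ar1, all of them receptors of phagocytes. Vsig4, a complement receptor of Kupffer cells, had 29.8 to 62.9 normalized counts in control, 310 and 241 in p65 KO, and 76.3 to 165 in DKO (log2 fold change in p65 KO 2.69 ± 0.453, edgeR adjusted p = 0.00502). Itgax and C3ar1 were at or under 3 counts in every control library. C1ra had 13094 to 14357 in control and 18338 and 17608 in p65 KO, a log2 fold change of 0.39 ± 0.119 that was below the fold threshold (edgeR adjusted p = 0.0481). C1s1 had 17841 to 18680 in control and 22321 and 22106 in p65 KO (0.29 ± 0.11, edgeR adjusted p = 0.103). Serping1, the C1 inhibitor, had 21423 to 28029 in control and 29404 and 28646 in p65 KO (0.25 ± 0.165, edgeR adjusted p = 0.321). C4b had 37668 to 46101 in control, 78861 and 62077 in p65 KO and 49298 to 72397 in DKO. Its log2 fold changes were 0.78 ± 0.181 in p65 KO and 0.64 ± 0.164 in DKO (edgeR adjusted p = 0.0191 and 0.0491), below the fold threshold. For C3 the log2 fold change in p65 KO was 0.02 ± 0.212 (edgeR adjusted p = 0.958). The C1q genes thus differed between control and p65 KO by 2.77 to 3.15 on the log2 scale, and the genes for the proteases C1q binds by 0.29 and 0.39, at levels far above those of C1q. The list median was 0.39, or 0.34 with bounds.

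Cathepsin S was likewise set apart from other cathepsins. By edgeR none of 15 cathepsins and cathepsin inhibitors was called in p65 KO or DKO, 2 had an unadjusted p under 0.05 in p65 KO and 4 in DKO, and DESeq2 called 0. Ctsb had 12624 to 15590 normalized counts in control and 15809 and 14631 in p65 KO (log2 fold change 0.09 ± 0.12), Ctsd had 10352 to 11224 and 11910 and 10554 (0.06 ± 0.139), and Ctsl had 16759 to 18893 and 16155 and 16472 (-0.11 ± 0.109). The list median was -0.11, or -0.13 with bounds. Of 21 lysosomal genes, Cd68 and Atp6v0d2 rose in p65 KO. Cd68, a macrophage glycoprotein, had 14 to 23.6 in control and 144 and 79.4 in p65 KO (2.54 ± 0.462, edgeR adjusted p = 0.00696). Laptm4a, the broadly expressed relative of Laptm5, had 4935 to 5728 in control and 4742 and 5715 in p65 KO (-0.06 ± 0.122).

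**Figure D3:**
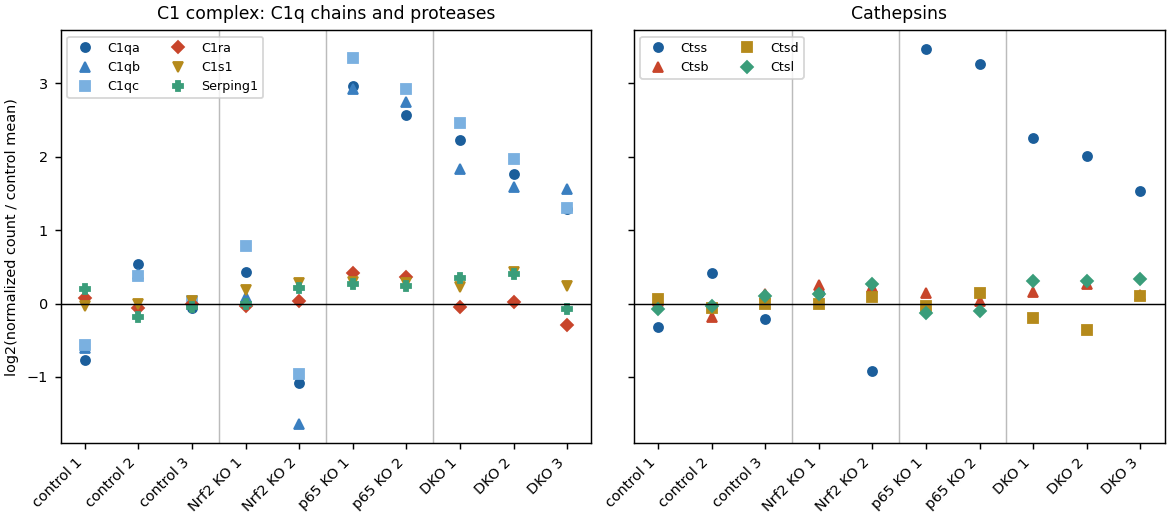
Log2 ratio of the normalized count in each library to the mean of the 3 control libraries (vertical axis), for the C1q chains beside C1ra, C1s1 and Serping1 (left) and for Ctss beside Ctsb, Ctsd and Ctsl (right). In p65 KO and DKO libraries the C1q chains and Ctss lie above 1, while the other genes stay near 0 in every library.

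Markers of the cells that a hepatocyte preparation can also hold were measured in the same libraries. In p65 KO 12 of 18 mononuclear phagocyte genes, 8 of 12 Kupffer cell genes, 5 of 15 pan-leukocyte genes, 2 of 10 monocyte and dendritic cell genes and 1 of 6 neutrophil genes rose. Clec4f, which marks Kupffer cells, had 77.3 to 211 normalized counts in control, 48.5 and 195 in Nrf2 KO, 1127 and 848 in p65 KO, and 302 to 611 in DKO (p65 KO log2 fold change 2.67 ± 0.505, edgeR adjusted p = 0.0084). Adgre1, which encodes F4/80, rose by 3.09 ± 0.55 (edgeR adjusted p = 0.00633), and Spi1 by 3.07 ± 0.581 (edgeR adjusted p = 0.00833). Cybb, the NADPH oxidase subunit of phagocytes, rose by 3.81 ± 0.419 in p65 KO and 2.02 ± 0.395 in DKO (edgeR adjusted p = 0.000789 and 0.0179). In DKO 5 of 18 phagocyte genes, 4 of 12 Kupffer cell genes and 1 of 15 pan-leukocyte genes rose. Positive log2 fold changes in DKO were seen for 18, 8 and 13 of them. The DKO medians were 1.40, 1.47 and 1.27, the last 0.98 with bounds.

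Markers of cells that are not leukocytes rose as well. All 10 sinusoidal endothelial genes and 7 of 9 stellate cell genes rose in p65 KO, with median log2 fold changes of 1.92 and 3.06, the latter 2.94 with bounds. Eng, an endothelial co-receptor, had 83.9 to 158 normalized counts in control and 747 and 481 in p65 KO, and Dcn, a matrix proteoglycan of stellate cells, had 46.2 to 107 in control and 808 and 890 in p65 KO. In DKO 2 of 10 endothelial and 1 of 9 stellate genes rose, while 10 and 8 had positive log2 fold changes. The medians there were 0.96 and 1.57, the latter 1.39 with bounds. No T and NK cell gene of 9, B cell gene of 4, cholangiocyte gene of 4, erythroid gene of 5 or stress gene of 8 was called in p65 KO by edgeR, where 2, 1, 0, 0 and 2 of them had an unadjusted p under 0.05, and DESeq2 called 0. Positive log2 fold changes in p65 KO were seen for 7 of the 9 T and NK cell genes, 2 of the 4 B cell genes and all 6 neutrophil genes. Counts were low: 8, 3 and 5 of these genes never exceeded 3 counts in at least 1 of the 2 groups. Lists summed to 10.8 to 14.9 in control and 32.1 to 41.7 in p65 KO for T and NK cells, and to 3.31 to 12.1 and 7.56 to 19.3 for B cells. Neutrophil genes summed to 3.74 to 7.87 in control and to 15.1 and 76.2 in p65 KO. Altogether 73 of 241 partner and marker genes rose in p65 KO, where 5.05% of all genes were called higher, against 1.36% in DKO. The lists were chosen with earlier results of these libraries known, so nothing is read from the counts called. None of the 241 fell by edgeR, 7 were lower at an unadjusted p under 0.05, and DESeq2 called 0 lower. The 73 became 21 without p65 KO replicate 1 and 38 without control replicate 1. In DKO 20 were called, all higher, and this number was 8 to 13 without any 1 of DKO replicates 1 and 2, control replicates 2 and 3 and the p65 KO replicates, and 2 without control replicate 1.

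**Figure D4:**
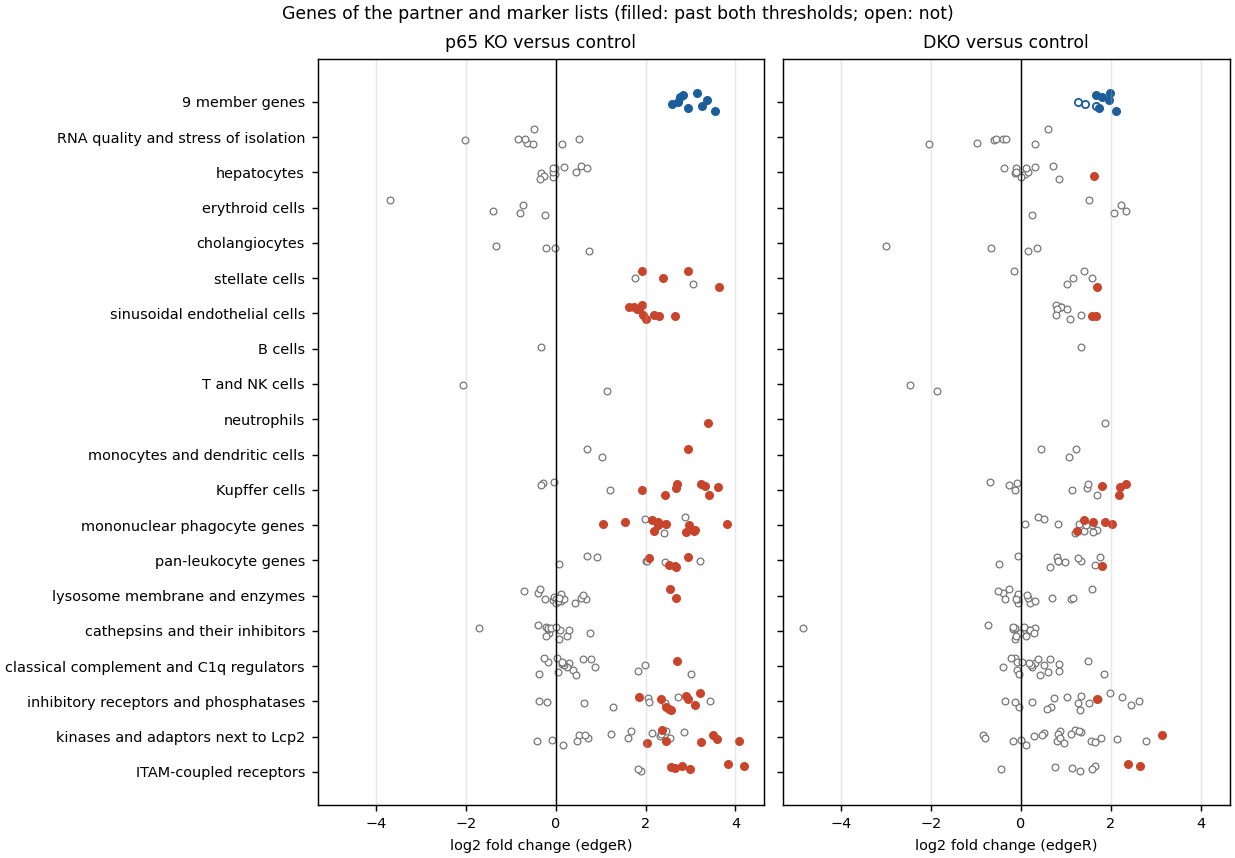
Log2 fold changes (horizontal axis) of the genes of each partner and marker list, in p65 KO against control (left) and DKO against control (right); filled points passed both thresholds, and genes with at most 3 counts in every control library are left out. In p65 KO the points of the phagocyte, Kupffer cell, endothelial and stellate lists lie mostly to the right of 0 with the 9 genes on the top line, and those of hepatocytes, cathepsins and lysosome lie mostly about 0.

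Summed over the 9 genes, normalized counts were 200 to 443 in control, 142 and 366 in Nrf2 KO, 2099 and 2767 in p65 KO and 767 to 1272 in DKO. Kupffer cell markers with a control mean under 500 summed to 221 to 540, 139 and 454, 2654 and 3718, and 1045 to 1638. The ratio of the 9 genes to these markers was 0.609 to 0.905 in control, 0.744 and 0.791 in p65 KO and 0.734 to 0.908 in DKO, so these 3 ranges overlapped. In Nrf2 KO it was 0.806 and 1.02. The ratio to endothelial markers was 0.169 to 0.333 in control, 0.489 and 0.543 in p65 KO and 0.347 to 0.498 in DKO. Control did not overlap with p65 KO or DKO there, but did with Nrf2 KO, at 0.188 and 0.146. The ratio to stellate markers was 0.586 to 1.7 in control, 1.01 and 0.746 in Nrf2 KO, 0.878 and 1.11 in p65 KO and 0.924 to 2.82 in DKO. The part of phagocyte, endothelial or stellate RNA in the values of the 9 genes was not tested.

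**Figure D5:**
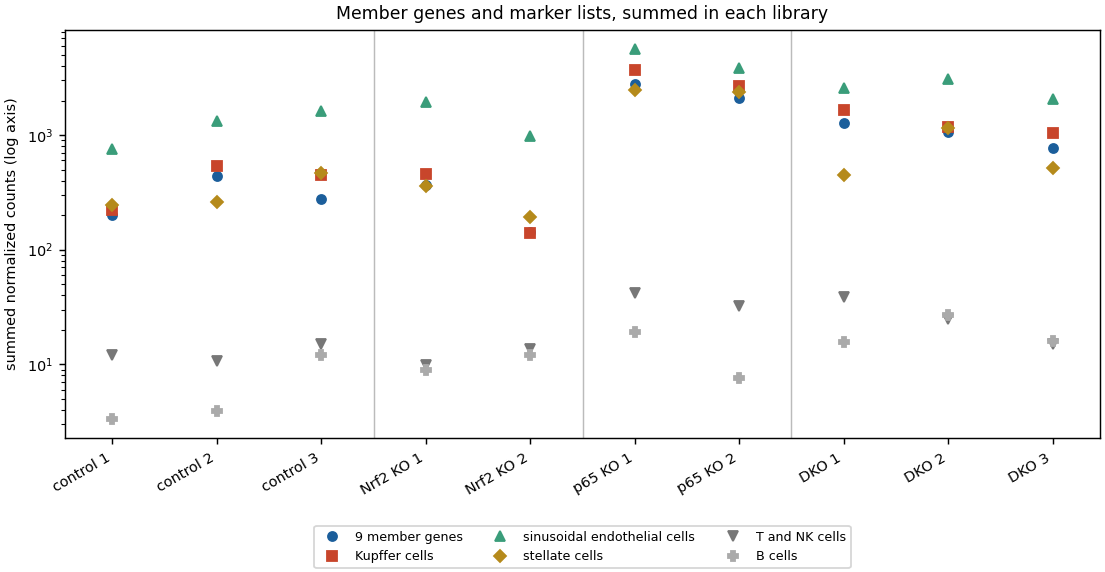
Summed normalized counts (log axis) of the 9 genes and of 5 marker lists in each library, with marker genes whose control mean was 500 or more left out. The 9 genes and the Kupffer cell and endothelial markers are highest in the p65 KO libraries and intermediate in DKO. Stellate cell markers are also highest in p65 KO, while T and NK cell and B cell markers stay below 50 in every library.

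The levels of the 9 genes were correlated across the 10 libraries, a measure that includes the differences between genotypes. Pearson correlations between log2(normalized count + 1) of the 36 pairs ran from 0.857 for Fcer1g and Tyrobp to 0.995 for C1qa and C1qc, with a median of 0.949. These values describe 10 libraries that share their genotypes, and no p-value is given. The non-member genes most like the mean of the 9 genes, among 10177 whose mean normalized count was 50 or more, were H2-Aa (r = 0.991), Sdc3 (0.986), Cd5l (0.985), Cybb (0.981), Lyz2 (0.981), Axl (0.98), H2-Eb1 (0.979), Dnase1l3 (0.978), Cfp (0.976) and Cd74 (0.972). H2-Aa and H2-Eb1 encode chains of MHC class II and Cd74 the invariant chain that cathepsin S trims. H2-Aa had 16.6 to 53.1 normalized counts in control, 14.5 and 30.6 in Nrf2 KO, 972 and 785 in p65 KO, and 134 to 321 in DKO. Cd74 had 55.2 to 112 in control, 82.4 and 113 in Nrf2 KO, 2146 and 1603 in p65 KO, and 410 to 944 in DKO. Both were higher in the p65 KO libraries than in any other library, as were the 9 genes.

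Of 28 other genes tested within 100 kb of a member, 3 were called in p65 KO, where 6.59% of all genes were called. Nothing is read from that count. Lrfn3, near Tyrobp, fell by 2.76 on the log2 scale (edgeR adjusted p = 0.000722). Sdc3, near Laptm5, rose by 3.11 (edgeR adjusted p = 0.00217) and Zbtb40, near the C1q genes, by 1.14 (edgeR adjusted p = 0.0374). Hcst, which encodes the adaptor DAP10 and lies 125 bp from Tyrobp, had a mean of 1.25 normalized counts.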

How the data were processed

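Poly-A RNA of hepatocytes from 10 mice was sequenced as stranded single-end reads. The authors quantified transcripts with Salmon 1.10.3 against GRCm39 and GENCODE M33 and deposited a gene table of estimated counts. Although the submitters call that table normalized, library totals vary in it, so the deposited estimated counts, which are whole numbers, were treated as unscaled. Symbols came from GENCODE M39, in which 21926 of 21939 identifiers were found. Genes with at least 10 counts over all libraries (13641) were fitted with edgeR 4.0.16 in R 4.3.3, using TMM scaling, a quasi-likelihood test, and 1 mean per genotype over all 10 libraries. Fold changes and Benjamini-Hochberg adjusted p-values come from that fit. Each standard error was back-calculated as the size of the log2 fold change divided by the square root of the quasi-likelihood F statistic. Such a value is unreliable where the fold change is very small. For Clec12a, the interaction of -0.01 had a standard error of 0.265. Its standard errors were 0.612 in p65 KO against control and 0.764 in DKO against Nrf2 KO. The study's own tool, DESeq2, was run as an alternative (version 1.42.0), with 17 further alternatives. Libraries held 33707165 to 49897382 counts. Nothing in the labels separates mice beyond genotype and number, so p-values measure only the spread between these animals.

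The 9 genes and the partner and marker lists were chosen with earlier results of these data known. Besides the 9 genes, the targeted genes and 22 direct partners, up to 4 called genes with the largest fold change and a mean normalized count of 20 or more, and up to 2 with the highest mean, could be named per list. Genes named outside that rule (Itgax, C3ar1 and the neighbours) were chosen after their values were seen. Genes shared by 2 lists are Fcgr2b, Ptpn18 and Vsig4. The Kupffer cell genes Slc40a1, Nr1h3 and C6 and the leukocyte gene Lcp1 exceeded 500 counts in control. Upstream windows were read from the GRCm39 genome.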

Additional observations from a re-analysis of the deposited data

Results flagged for a closer look

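Among the 9 genes and their partner and marker lists, 2 genes had an effect of p65 loss that differed with the presence of Nrf2 by the interaction test. They were 2 of 241 partner and marker genes tested, where 0.455% of all genes were called, and nothing is read from that count. Atp6v0d2, a subunit of the lysosomal proton pump, had 15.5 to 36.4 normalized counts in control, 120 and 155 in Nrf2 KO, 216 and 116 in p65 KO, and 30.5 to 84.7 in DKO. Its interaction was -3.92 ± 0.631 on the log2 scale (edgeR adjusted p = 0.0302). Its libraries moved up with p65 loss in mice with Nrf2 and down in mice without it, and likewise for Nrf2 loss with and without p65, the same difference of -3.92, for which the opposite directions themselves were not tested separately. Mpeg1, the pore-forming protein perforin-2 of phagocytes, had 558 to 663 in control, 1596 and 1246 in Nrf2 KO, 3202 and 2649 in p65 KO, and 1105 to 2271 in DKO. Its interaction was -1.92 ± 0.352 (edgeR adjusted p = 0.0465), and its libraries moved up with Nrf2 loss in mice with p65 and down in mice without it (-1.92, opposite directions not tested separately). Neither call was kept without Nrf2 KO replicate 1, Nrf2 KO replicate 2, control replicate 1, control replicate 2 or either p65 KO replicate, where 0 partner and marker genes were called for the interaction, and Mpeg1 was not called without control replicate 3. Ctsl moved down with p65 loss in mice with Nrf2 and up in mice without it, by a log2 difference of 0.22 that was not past the thresholds.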

How the results depend on the processing

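Among the named genes, no log2 fold change that had been called changed sign under an alternative, whereas uncalled differences of the 9 genes in Nrf2 KO against control and in the interaction did under some. Equal totals in place of TMM moved the median of all genes by 0.18 in p65 KO against control, -0.27 in DKO against p65 KO and -0.26 in the interaction, and the share of calls that were higher from 76.6% to 86%, from 57.2% to 46.4% in DKO against control, from 45.7% to 17.1% in DKO against p65 KO and from 58.1% to 22.9% in the interaction. The median of the 9 genes was then 3.12 in p65 KO against control, 1.64 in DKO against control and -1.48 in DKO against p65 KO. Low counts limit Lcp2, Ptprc and the receptors in control, and with 2 mice in Nrf2 KO and p65 KO single libraries weigh heavily. The causes of the following moves were not tested.

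With DESeq2, all genes called numbered 135 in Nrf2 KO against control (75 with edgeR), 534 in DKO against control (325), 296 in DKO against Nrf2 KO (59), 453 in DKO against p65 KO (243) and 249 in the interaction (62). Partner and marker genes called were 2, 39, 28, 18 and 5 in the same order (1, 20, 1, 5 and 2 with edgeR), and of the 9 genes DESeq2 called 7 in DKO against Nrf2 KO and 3 in DKO against p65 KO (1 each with edgeR). Fitting only the genotypes compared gave 215, 18 and 105 genes in DKO against control, Nrf2 KO and p65 KO, 11, 0 and 3 partner and marker genes there and 2 in Nrf2 KO against control, and of the 9 genes 0 in DKO against Nrf2 KO and 2 in DKO against p65 KO. Without a filter on low counts, partner and marker calls were 2 in Nrf2 KO against control, 4 in DKO against Nrf2 KO and 10 in DKO against p65 KO, 2 of the 9 genes were called in DKO against Nrf2 KO, and all genes called were 112 there and 137 in the interaction. A mean of at least 10 counts gave 0 partner and marker genes in DKO against Nrf2 KO and 1 in the interaction. Equal totals gave 0 partner and marker genes in DKO against Nrf2 KO and 20 in DKO against p65 KO, 3 of the 9 genes and 504 of all genes in DKO against p65 KO, and 118 of all genes in the interaction.

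The deviations of 13 same-numbered pairs of libraries from their genotype means correlated between -0.232 and 0.113, and 1 of 13 exceeded 0.1. In Nrf2 KO and p65 KO, with 2 mice each, the 2 deviations mirror each other. The 13 values are therefore not independent and do not settle whether the replicate numbers pair the libraries. With a replicate block, 3 of the 9 genes were called in DKO against control and 0 in DKO against p65 KO, partner and marker calls were 9 in DKO against control, 0 in DKO against Nrf2 KO, 2 in DKO against p65 KO and 1 in the interaction, and all genes called in DKO against Nrf2 KO were 37. In p65 KO against control 8 of the 9 genes were called with the block, without Ptprc.

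Leaving out each library in turn, calls among all genes ranged from 18 to 84 in Nrf2 KO against control, 325 to 954 in p65 KO, 147 to 316 in DKO, 18 to 81 in DKO against Nrf2 KO, 70 to 294 in DKO against p65 KO and 8 to 119 in the interaction. Partner and marker calls ranged from 0 to 2, 21 to 75, 2 to 22, 0 to 2, 0 to 6 and 0 to 3 in the same order. Of the 9 genes, 6 to 9 were called in p65 KO against control, 1 to 5 in DKO against control, 0 to 2 in DKO against Nrf2 KO and 0 to 2 in DKO against p65 KO.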

Other observations

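Lcp1, an actin-bundling protein on the leukocyte list, was abundant in every genotype and did not follow the order of the 9 genes. It had 3051 to 3372 normalized counts in control, 1836 and 2082 in Nrf2 KO, 3444 and 3432 in p65 KO, and 1966 to 2599 in DKO.

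Tat, the tyrosine aminotransferase of hepatocytes, was the hepatocyte gene that rose in DKO. It had 25764 to 39385 normalized counts in control, 30931 and 22510 in p65 KO and 69715 to 124748 in DKO (log2 fold change 1.62 ± 0.263, edgeR adjusted p = 0.00766). Hbb-bs, a beta-globin, had 24.3 to 71.9 in control, 47.7 and 17 in p65 KO, and 452, 162 and 91.5 in DKO replicates 1 to 3, and was not called (edgeR adjusted p = 0.0732). Of the 5 erythroid genes edgeR called 0 in DKO against control, 3 had an unadjusted p under 0.05, DESeq2 called 3 higher, and their median log2 fold change was 2.06. Against p65 KO, edgeR called 0 of them, 5 had an unadjusted p under 0.05, DESeq2 called 4 higher, and the median was 2.96.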
